A study of Mus musculus with 14 samples.

Results

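The Ly49 receptors, encoded by the Klra genes, were followed in immature natural killer cells (iNK) and immature type 1 innate lymphoid cells (iILC1) from mouse bone marrow. The members were the 10 genes Klra1 to Klra10, taken by gene identifier from a table of 46078 genes. The study asked what becomes of both cell types when blood cells cannot make interleukin 15 (IL-15), the cytokine that sustains NK cells and ILC1s. The mutant mice were Vav-Cre;Il-15-flox/KO (cKO), and the controls were Il-15-flox/KO. All mice were C57BL/6 and 8 weeks old, and all of them, controls included, carried 1 knockout allele and 1 floxed allele of Il15. The Vav promoter drives Cre in blood stem cells and what descends from them. By this design cells outside the blood lineage of cKO mice keep the floxed allele, which was not checked here. The groups were cKO iILC1 (n = 4), control iILC1 (n = 3), cKO iNK (n = 4) and control iNK (n = 3).

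Ly49 receptors are C-type lectin-like proteins that sit as homodimers in the membrane of NK cells, and many of them bind MHC class I molecules on other cells. The inhibitory receptors carry an immunoreceptor tyrosine-based inhibition motif (ITIM) in their cytoplasmic tail, through which they recruit phosphatases that restrain killing. The activating receptors lack that motif and signal through the adaptor DAP12. A single NK cell expresses only some of the genes, and the receptors are acquired as NK cells mature in the bone marrow.

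By role, Klra4 (Ly49D) and Klra8 (Ly49H, which recognises a protein of mouse cytomegalovirus in C57BL/6 mice) are the 2 activating members. The 8 inhibitory members are Klra1 (Ly49A), Klra2 (Ly49B), Klra3 (Ly49C), Klra5 (Ly49E), Klra6 (Ly49F), Klra7 (Ly49G), Klra9 (Ly49I) and Klra10 (Ly49J). The first 60 coding bases show this division at the level of the transcript, because the tail is encoded at the start of the message. They are given for both activating members and for the 3 inhibitory members with the smallest edgeR p between genotypes, which were the same 3 in iILC1 and in iNK. The sequences are from GENCODE M21 on GRCm38, read 5′ to 3′ on the minus strand of chromosome 6, and capitals mark the codons of the ITIM.
Klra4: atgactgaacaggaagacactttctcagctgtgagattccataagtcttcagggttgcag
Klra8: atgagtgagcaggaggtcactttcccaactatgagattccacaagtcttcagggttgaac
Klra7: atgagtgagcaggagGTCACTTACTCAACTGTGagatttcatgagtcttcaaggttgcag
Klra1: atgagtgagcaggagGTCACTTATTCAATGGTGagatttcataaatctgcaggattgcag
Klra6: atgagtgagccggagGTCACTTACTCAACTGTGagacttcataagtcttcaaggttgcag
The motif, searched in the translation of the first 30 codons of the coding strand, began at codon 6 in all 8 inhibitory members and was not found in Klra4 or Klra8. Of 21627 protein-coding genes searched the same way, 3.21% held it. A match describes the letters and is not a test of function.

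The members other than Klra2 and 4 further Klra loci lie side by side on the minus strand of chromosome 6 (mm10). In order of position they run from Klra17 (chr6:129831154-129876672) through Klra5 (chr6:129898996-129917650), Klra6 (chr6:130013033-130026954), Klra4 (chr6:130043731-130067271), Klra11-ps, Klra8 (chr6:130115226-130129898), Klra14-ps, Klra9 (chr6:130178753-130193112), Klra7 (chr6:130218605-130233322), Klra10 (chr6:130269194-130281928), Klra13-ps and Klra3 (chr6:130323289-130337574) to Klra1 (chr6:130363918-130386874). Klra2 (chr6:131219223-131247362) stands apart, 832349 bases from Klra1. The loci with the suffix ps are annotated as pseudogenes. All values are counts over a whole gene, and no exon or transcript was resolved.

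Near-identical members limit how far a single gene can be read. The coding sequences of Klra3, Klra9 and Klra10 were 95.9 to 96.9% identical to each other, and Klra2 was 63.6 to 65.3% identical to the other members. Of all stretches of 50 bases in the transcripts, 39.8% for Klra10, 33.1% for Klra8, 31.5% for Klra9, 20.7% for Klra3 and 12.3% for Klra7 also occurred in another Klra locus. The shares were at most 4.35% for Klra1, Klra2, Klra4, Klra5 and Klra6. With stretches of 100 bases the highest share was 14.4%, for Klra8, nearly all of it with Klra14-ps. The sources used here give neither the read length nor the handling of reads with several matches. Values of Klra3, Klra7, Klra8, Klra9 and Klra10 are therefore uncertain and are also given as sums with their closest relatives.

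**Figure D1:**
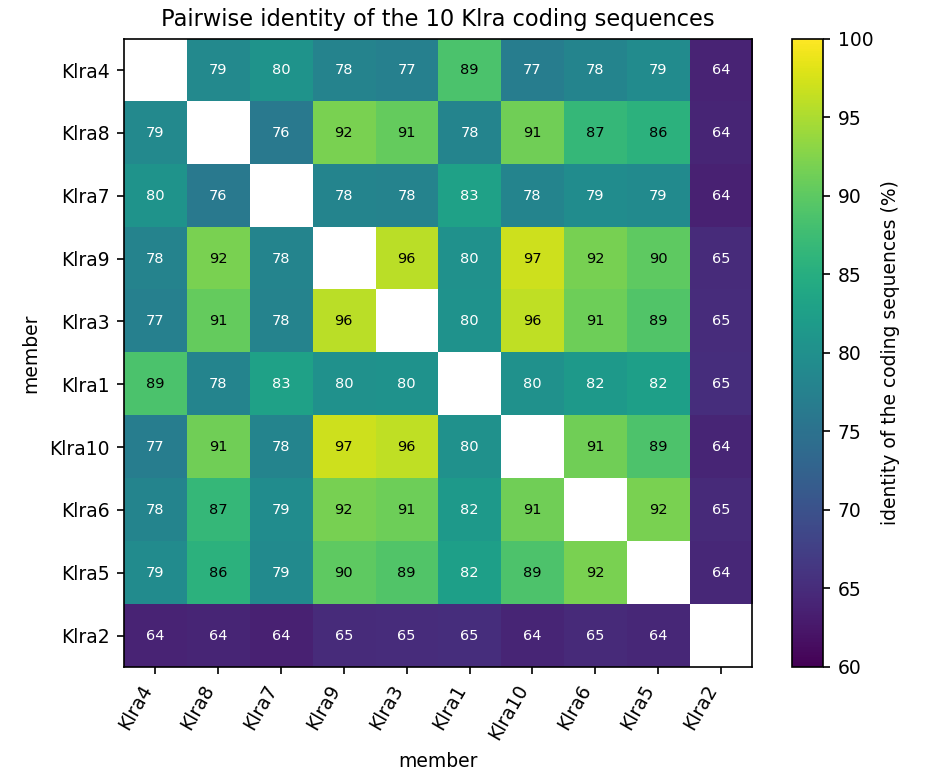
Pairwise identity (%) of the 10 members' coding sequences, members on both axes and colour and numbers giving the identity. Klra3, Klra9 and Klra10 form the most similar block, at 95.9 to 96.9%, and Klra2 is the most distant, at 63.6 to 65.3%.

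Each library came from 2000 sorted cells, amplified with a kit that does not mark the strand. iILC1 were sorted as CD3-, NK1.1+, IL-7Ra+ and CD49a+, and iNK as CD3-, NK1.1+, DX5+, CD27+, CD11b- and IL-7Ra-. Total counts were 5478641 to 10308693 per library in cKO iILC1, 3512796 to 4933284 in control iILC1, 6254844 to 12572326 in cKO iNK and 6238016 to 8013984 in control iNK. Levels are given as CPM, counts scaled to a common library size with TMM factors. Most ILC1 markers met the cell type labels, and fewer of the NK cell markers did. By edgeR's test in cKO mice, 7 of 8 ILC1 markers were higher in iILC1 and 1, Tcf7, was lower. Of 6 NK cell markers, 2 were lower in iILC1 and 1, Ncr1, was higher, at 2108 ± 676 CPM against 856 ± 180 in cKO iNK. The other NK cell markers were not called, and 3.42% of all genes were called in either direction in this comparison. RNA of Itgam, which encodes CD11b, averaged 119 ± 42.0 CPM in control iNK, although the gate was CD11b-. Eomes, the NK lineage factor, averaged 94.3 ± 17.9 CPM in cKO iILC1, 132 ± 17.0 in control iILC1, 804 ± 159 in cKO iNK and 732 ± 215 in control iNK (SD). Il7r, which encodes the receptor of the gate, averaged 646 ± 91.3, 408 ± 61.2, 22.4 ± 5.60 and 8.37 ± 2.59 CPM in the same groups. Il15 itself averaged 18.0 ± 5.62, 12.9 ± 1.07, 10.6 ± 1.55 and 9.85 ± 1.52 CPM in the same groups, and a count over the whole gene does not resolve the floxed part, so it does not check the genotype. Reads in 1345 receptor genes of smell and pheromone sensing, taken as background, summed to 1389 to 3034 CPM and were lowest in control iNK replicate 1 and cKO iILC1 replicate 1. Nothing in the labels states that replicates are separate mice, and p-values therefore cover the spread between these libraries alone, which may be technical.

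The family as a whole was a prominent signal in iNK and a smaller one in iILC1. The 10 members together summed to 231 ± 46.7 CPM in cKO iILC1, 424 ± 63.9 CPM in control iILC1, 2220.0 ± 401 CPM in cKO iNK and 2132 ± 477 CPM in control iNK (SD). The 4 cKO iILC1 libraries lay at 188 to 275 CPM and the 3 control iILC1 libraries at 368 to 494 CPM, with no overlap. In iNK the libraries of both genotypes overlapped, at 1787 to 2724 CPM in cKO and 1678 to 2629 CPM in control. In bulk samples, fewer cells that express a gene and less RNA of it per cell cannot be told apart.

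**Figure D2:**
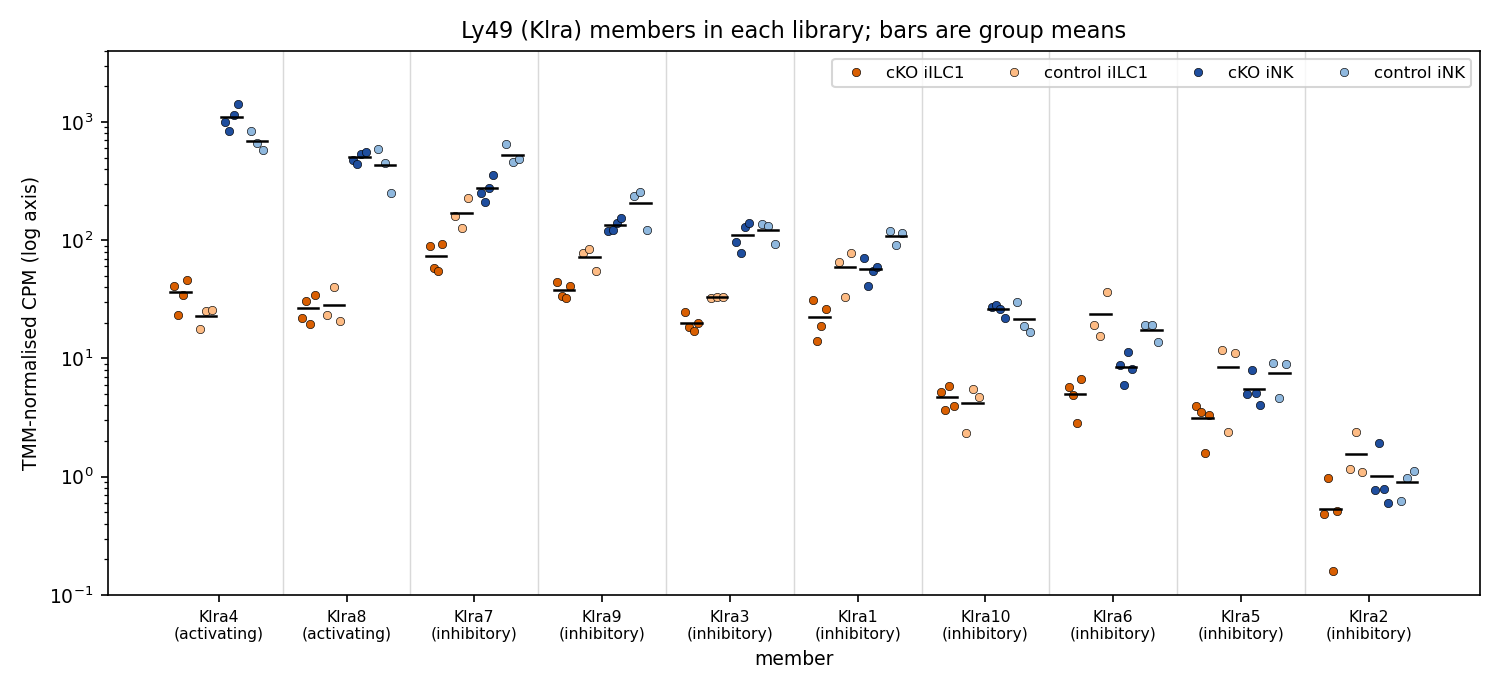
TMM-normalised CPM of each member on a log axis, 1 point per library and a bar at each group mean, with groups in the order cKO iILC1, control iILC1, cKO iNK and control iNK. Klra4 and Klra8 show the widest gap between iILC1 and iNK, and Klra7, Klra1 and Klra6 lie lower in cKO than in control libraries of both cell types without overlap.

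Levels of different members were compared per kilobase of the gene length in the table. In cKO iILC1 the order was Klra7, Klra9, Klra4, Klra8, Klra3, Klra1, Klra10, Klra6, Klra5 and Klra2, led by Klra7 at 58.2 ± 15.4 CPM per kilobase. In control iILC1 it was Klra7, Klra9, Klra1, Klra3, Klra8, Klra6, Klra4, Klra5, Klra10 and Klra2, again led by Klra7, at 135 ± 41.1 CPM per kilobase. Klra7 was therefore the leading member of iILC1 in both genotypes, and its libraries did not overlap those of the next member, Klra9. Klra13-ps, its closest relative and not a member, stood at 62.9 ± 20.3 CPM per kilobase in cKO iILC1 and 72.55 ± 12.25 in control iILC1. Klra4 stood at place 3 in cKO iILC1 and at place 7 in control iILC1. In cKO iILC1 the neighbours Klra9, Klra4, Klra8, Klra3 and Klra1 overlapped step by step, and in control iILC1 so did Klra1, Klra3, Klra8, Klra6 and Klra4, so those places are not separated by the libraries.

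The activating gene Klra4 had the highest mean of the members in iNK of both genotypes. The order was Klra4, Klra8, Klra7, Klra9, Klra3, Klra1, Klra10, Klra6, Klra5 and Klra2 in cKO iNK, and the same in control iNK except that Klra7 stood above Klra8. Klra4 led the members at 883 ± 196 CPM per kilobase in cKO iNK and 555 ± 107 CPM per kilobase in control iNK. Klra13-ps, not a member, stood at 776 ± 214 and 652 ± 200 CPM per kilobase in the same groups. In cKO iNK each of the first 3 places was clear of the next, whereas in control iNK each of the first 4 places overlapped with the next. Klra2, whose receptor is known mainly from myeloid cells, was last in every group, with 1 to 14 counts per library, and did not pass the filter on low counts. It had 0.159 to 0.980 CPM in cKO iILC1, 1.10 to 2.39 CPM in control iILC1, 0.596 to 1.94 CPM in cKO iNK and 0.625 to 1.12 CPM in control iNK. The other 9 members were tested.

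The make-up of the family signal differed between the genotypes in both cell types. Klra4 and Klra8 together made up 23.4, 28.2, 28.7 and 29.3% of the members' summed CPM in the 4 cKO iILC1 libraries, against 9.96, 17.9 and 9.42% in the 3 control iILC1 libraries. In iNK they made up 71.8, 72.2, 72.2 and 72.6% in the cKO libraries, against 54.4, 53.2 and 49.2% in the control libraries. Every cKO library thus had a larger activating share than every control library of its cell type. Such a share is taken within a library and does not depend on the scaling between libraries. Per kilobase the shares were alike, at 28.3 ± 2.72% in cKO iILC1, 13.1 ± 4.78% in control iILC1, 72.7 ± 0.311% in cKO iNK and 53.3 ± 2.59% in control iNK. The share is a summary over members and was given no test.

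**Figure D3:**
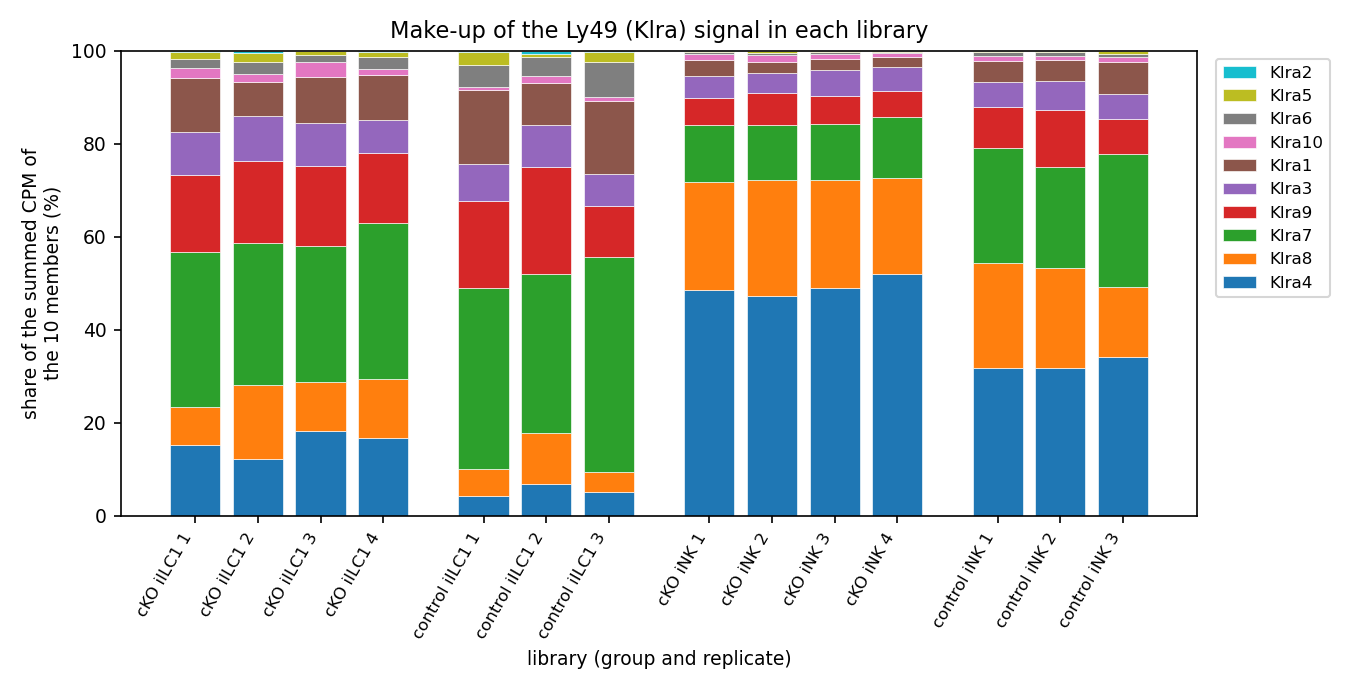
Share (%) of each member in the summed CPM of the 10 members, 1 stacked bar per library, with Klra4 and Klra8, the activating members, at the bottom. Both together reach 71.8 to 72.6% in cKO iNK and 49.2 to 54.4% in control iNK, and 23.4 to 29.3% in cKO iILC1 and 9.42 to 17.9% in control iILC1.

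The sums behind the shares moved unequally. The 8 inhibitory members summed to 168 ± 36.8 CPM in cKO iILC1 and 373 ± 72.5 CPM in control iILC1, and to 616 ± 106 CPM in cKO iNK and 1010.0 ± 175 CPM in control iNK. Within each cell type the inhibitory sums of cKO and control libraries did not overlap, at 134 to 204 against 303 to 447 CPM in iILC1 and 496 to 745 against 853 to 1199 CPM in iNK. The largest part was Klra7, at 73.7 ± 19.5 CPM in cKO and 171 ± 52.0 CPM in control iILC1, and 274 ± 62.2 CPM in cKO and 528 ± 104 CPM in control iNK. Inhibitory members did not all fall: Klra10 had log2 fold changes of cKO over control of 0.10 in iILC1 and 0.25 in iNK. The activating sums overlapped, at 62.8 ± 12.4 CPM in cKO iILC1 and 51.1 ± 13.0 CPM in control iILC1, and at 1604 ± 295 CPM in cKO iNK and 1122 ± 303 CPM in control iNK. A ratio chosen after the values were seen, that of Klra4 to Klra7 in the same library, was 3.96 to 4.09 in cKO iNK and 1.19 to 1.46 in control iNK. The same ratio was 0.401 to 0.621 in cKO iILC1 and 0.112 to 0.201 in control iILC1.

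The comparison of cKO with control iILC1 asked whether the receptors of iILC1 depend on IL-15 from blood cells. The inhibitory genes Klra6 and Klra1 fell in cKO iILC1, and no member rose. Of the 9 members tested, 2 passed edgeR's quasi-likelihood test at an adjusted p of 0.05, both lower, against 0.0259% of all 26990 genes called lower in this comparison (0.0482% in either direction). The groups' libraries did not overlap for 5 of the 9 tested members, Klra1, Klra3, Klra6, Klra7 and Klra9, all lower in cKO, against 2.82% of all genes lower without overlap. Those of Klra2, which was not tested, did not overlap either and were also lower in cKO. The median log2 fold change was -0.92 over the 9 members, -1.22 over the 7 inhibitory ones and 0.28 over the 2 activating ones, beside 0.02 over all genes tested.

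Klra6 had 5.69, 4.90, 2.86 and 6.74 CPM in the cKO iILC1 libraries, against 19.3, 15.5 and 36.5 CPM in the control iILC1 libraries. All cKO values lay well below all control values, of which replicate 3 was the highest. Its log2 fold change was -2.23 (SE 0.325), a 4.68-fold lower level, with an edgeR adjusted p of 0.00169. Without control iILC1 replicate 3 the estimate was -1.76, with an adjusted p of 0.143.

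Klra1, which encodes the first described Ly49 receptor, had 31.1, 14.1, 18.8 and 26.2 CPM in cKO iILC1, against 65.8, 33.2 and 77.9 CPM in control iILC1. The highest cKO library stood just below the lowest control library. Klra1 fell by 1.38 on the log2 scale (SE 0.27, edgeR adjusted p 0.0417). This call lay close to the threshold: it was lost with another scaling (RLE factors, adjusted p 0.0508), with only the 2 groups in the fit (0.062), and on leaving out cKO iILC1 replicate 2 (0.122), cKO replicate 3 (0.144), control replicate 1 (0.21) or control replicate 3 (1.0).

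Klra7 had 88.7, 58.7, 55.0 and 92.3 CPM in cKO iILC1, against 160.0, 126 and 228 CPM in control iILC1. The groups did not overlap, but the log2 fold change of -1.22 (SE 0.25) missed the threshold, at an edgeR adjusted p of 0.0724. It passed under 6 of 8 alternatives, over which the adjusted p was 0.00125 to 0.105, and also without cKO iILC1 replicate 1, without cKO iILC1 replicate 4 and without control iILC1 replicate 2. With other libraries left out that p reached 1.0. With Klra13-ps added, the level was 92.4 to 162 CPM in cKO iILC1 and 189 to 295 CPM in control iILC1, without overlap.

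The trio of near-identical inhibitory genes did not pass in iILC1. Klra9 had 44.5, 33.8, 32.5 and 41.3 CPM in cKO iILC1 and 77.2, 84.3 and 55.0 CPM in control iILC1 (log2 fold change -0.92, SE 0.235, edgeR adjusted p 0.307). Klra3 had 24.8, 18.6, 17.2 and 19.8 CPM in cKO iILC1 and 32.5, 33.4 and 33.2 CPM in control iILC1 (log2 fold change -0.71, SE 0.228, edgeR adjusted p 0.786). For both genes every cKO library was below every control library. Klra10 had 3.67 to 5.89 CPM in cKO iILC1 and 2.34 to 5.57 CPM in control iILC1, at 8 to 43 counts. Summed over Klra3, Klra9 and Klra10, which could exchange reads, the level was 62.8 ± 8.95 CPM in cKO iILC1 and 109 ± 15.3 CPM in control iILC1.

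Klra5, whose receptor Ly49E is known from fetal NK cells, had 4.00, 3.55, 1.59 and 3.31 CPM in cKO iILC1, against 11.7, 2.39 and 11.2 CPM in control iILC1. Control replicate 2 lay among the cKO values, and the log2 fold change was -1.41 (SE 0.442, edgeR adjusted p 0.759). Of the activating members, Klra4 had 40.7, 23.5, 34.2 and 46.0 CPM in cKO iILC1, against 17.8, 25.2 and 25.7 CPM in control iILC1. One cKO library lay among the controls, and the log2 fold change was 0.65 (SE 0.267, edgeR adjusted p 0.979). Klra8 had 19.7 to 34.5 CPM in cKO iILC1 and 20.9 to 40.6 CPM in control iILC1, fully overlapping (log2 fold change -0.08, SE 0.283). With Klra14-ps added, the level was 44.8 ± 6.39 CPM in cKO iILC1 and 51.2 ± 17.6 CPM in control iILC1.

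Other genes moved in the same comparison. Of 15 genes of NK maturation, 3 fell in cKO iILC1: Gzma by 1.68, Gzmb by 1.41 and Itgam by 1.41 on the log2 scale (edgeR adjusted p 0.00169, 0.00807 and 0.0147). Gzma and Gzmb encode granule proteases, and Itgam encodes CD11b, an integrin chain gained late in NK maturation. The 5 markers of mature NK cells summed to 86.1 to 128 CPM in cKO iILC1 and 138 to 221 CPM in control iILC1, with 1 of the 5, Itgam, called lower and none at 0. Of 11 T and NKT cell markers tested (12 listed), Trac fell, by 1.46 (edgeR adjusted p 0.0272), and the median log2 fold change over the 11 was -1.02, beside -0.92 over the 9 Klra members tested. Cd3e averaged 27.5 ± 5.60 CPM in cKO iILC1 and 64.0 ± 20.7 CPM in control iILC1, without overlap. The list summed to 496 to 953 CPM in cKO iILC1 and 586 to 970 CPM in control iILC1, with no marker at 0, and that sum holds Trbc1 at 384 ± 102 CPM in cKO iILC1 and 340 ± 77.7 CPM in control iILC1. Some NKT and mature NK cells also express Ly49 receptors, and the part of either list in the Klra values was not tested.

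The comparison of cKO with control iNK put the same question to iNK. No member rose or fell by edgeR's test in cKO iNK: 0 of 9 were called, against 0.408% of all genes in this comparison. At an unadjusted p under 0.05, 2125 of all genes and 5 members, Klra7, Klra1, Klra6, Klra9 and Klra4, would pass. DESeq2 called 294 of all genes and 2 members, Klra1 and Klra7. The libraries of 4 members did not overlap, Klra1, Klra6 and Klra7 lower and Klra4 higher in cKO, beside 4.75% of all genes lower and 4.09% higher without overlap. The median log2 fold change was -0.46 over the 9 members, -0.62 over the 7 inhibitory ones and 0.45 over the 2 activating ones, beside 0.06 over all genes.

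Klra7 had 248, 211, 279 and 358 CPM in cKO iNK, against 646, 455 and 482 CPM in control iNK. The groups were clearly apart, and the log2 fold change was -0.95 (SE 0.246), a 1.93-fold lower level, with an edgeR adjusted p of 0.0992. Over 8 alternatives that p was 0.00483 to 0.248, and 5 of them passed the threshold. With Klra13-ps added, the groups overlapped, at 704 to 1171 CPM in cKO iNK and 874 to 1360 CPM in control iNK.

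Klra1 had 71.3, 41.0, 54.7 and 59.8 CPM in cKO iNK, against 120.4, 91.0 and 115 CPM in control iNK. No library overlapped, and the log2 fold change was -0.94 (SE 0.262, edgeR adjusted p 0.151, 0.007 to 0.213 over the alternatives). Klra6 had 8.72, 5.96, 11.3 and 8.09 CPM in cKO iNK, against 19.2, 19.2 and 13.8 CPM in control iNK. Those groups were also apart, and the estimate was -1.03 (SE 0.315, edgeR adjusted p 0.235).

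Klra4, Klra8 and Klra10 had estimates above 0 in cKO iNK, none of them past the threshold, and of these 3 only Klra4 had libraries that did not overlap. Klra4 had 996, 846, 1138 and 1417 CPM in cKO iNK, against 835, 663 and 574 CPM in control iNK. The lowest cKO library was just above the highest control library, and the log2 fold change was 0.67 (SE 0.25, edgeR adjusted p 0.431). Klra8, the other activating gene, had 474, 445, 538 and 561 CPM in cKO iNK, against 595, 448 and 251 CPM in control iNK. Control replicate 1 exceeded every cKO library, and the log2 fold change of 0.23 (SE 0.267) had an edgeR adjusted p of 0.881. With Klra14-ps added, the level was 681 ± 80.4 CPM in cKO iNK and 597 ± 214 CPM in control iNK.

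The remaining inhibitory members of iNK overlapped between genotypes. Klra9 had 119, 122, 140.1 and 153 CPM in cKO iNK, against 236, 256 and 123 CPM in control iNK (log2 fold change -0.62, SE 0.229, edgeR adjusted p 0.429). Control replicate 3 was the library that lay within the cKO values. Klra3 had 78.6 to 140.0 CPM in cKO iNK and 93.1 to 137 CPM in control iNK (log2 fold change -0.12, SE 0.216). Klra10 had 22.1 to 28.2 CPM in cKO iNK and 16.6 to 29.8 CPM in control iNK. Klra5 had 4.00 to 8.04 CPM in cKO iNK and 4.58 to 9.21 CPM in control iNK. Summed over Klra3, Klra9 and Klra10, the level was 270 ± 41.4 CPM in cKO iNK and 348 ± 99.6 CPM in control iNK.

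**Figure D4:**
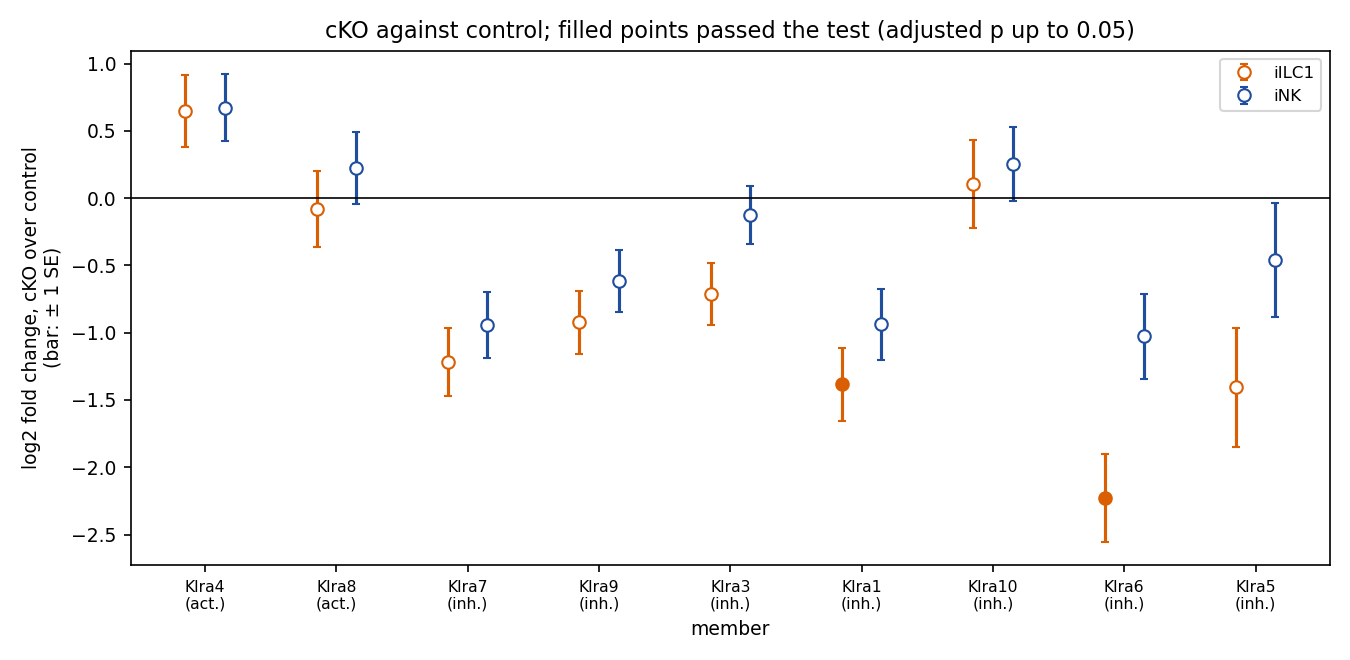
Log2 fold change of cKO over control for the 9 tested members, in iILC1 and in iNK, with bars of 1 SE and filled points where the edgeR adjusted p was at most 0.05. The points that passed are Klra1 and Klra6 in iILC1. Klra4 and Klra10 lie above 0 in both cell types, and Klra7, Klra9, Klra3, Klra1, Klra6 and Klra5 lie below 0 in both.

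Markers of B cells moved with genotype in iNK. Of the 10 listed, 7 rose in cKO iNK, among them Cd79b and Ly6d with log2 fold changes of 2.66 and 3.97 (edgeR adjusted p 1.75e-06 and 2.33e-05). Their summed level was 669 to 1072 CPM in cKO iNK and 396 to 612 CPM in control iNK, with no marker at 0. Of 15 genes of NK maturation, Gzmb and Gzma fell in cKO iNK, by 2.65 and 1.43 on the log2 scale. The 5 markers of mature NK cells summed to 167 to 250 CPM in cKO iNK and 174 to 407 CPM in control iNK, with none called. Their median log2 fold change was -0.98, beside -0.46 over the 9 Klra members tested, and Itgam had 53.7 to 70.4 CPM in cKO iNK and 83.7 to 165 CPM in control iNK, without overlap. Il7r was the 1 of 8 ILC1 markers that rose in cKO iNK (log2 fold change 1.42, edgeR adjusted p 0.00667), and Spib was the 1 of 8 plasmacytoid dendritic cell markers that rose (3.15, edgeR adjusted p 9.58e-05). The ILC1 list summed to 809 to 1187 CPM in cKO iNK and 488 to 832 CPM in control iNK, and the dendritic list to 423 to 588 and 432 to 617 CPM, with no marker at 0. The part of these lists in the Klra values was not tested.

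Whether the genotype effect differed between the cell types was tested as an interaction, with the effect in iNK subtracted from that in iILC1. No member passed: 0 of 9 were called by edgeR, against 0.0778% of all genes. DESeq2 also called 0 members. At an unadjusted p under 0.05 the counts were 1905 of all genes and 1 member, Klra6. All 9 estimates were below 0, with a median of -0.30 beside -0.03 over all genes, and edgeR adjusted p-values were 0.705 to 0.989. Klra6 had the lowest, at -1.20 (SE 0.455). Klra4 had the estimate nearest to 0, -0.02 (SE 0.367), and its sign turned with DESeq2 and with RLE scaling, both 0.03. The calls of Klra1 and Klra6 in iILC1 and their absence in iNK therefore do not show that the effects differed. No signalling partner, ligand, transcription factor, other lectin receptor or NK maturation gene of the lists passed the interaction, whereas 4 of 10 B cell markers and 1 of 8 plasmacytoid dendritic cell markers did, all with estimates below 0.

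The comparison of iILC1 with iNK gave the widest differences of the family. In cKO mice 7 of the 9 members tested fell in iILC1 and none rose, against 1.68% of all genes called lower (3.42% in either direction). In control mice 6 of 9 fell and none rose, against 3.0% of all genes called lower (3.91% in either direction). Libraries did not overlap for 8 members in cKO mice and 7 in control mice, all lower in iILC1, beside 3.08% and 13.0% of all genes. Medians over the members were -1.89 in cKO and -1.62 in control mice, beside 0.01 and 0.16 over all genes. The shift of 0.16 in the median of all genes in control mice bears on every fold change of that comparison.

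The activating genes fell most. Klra4 had the iILC1 and iNK values given above, 23.5 to 46.0 against 846 to 1417 CPM in cKO mice and 17.8 to 25.7 against 574 to 835 CPM in control mice. Its log2 fold change of iILC1 over iNK was -4.93 (SE 0.271, edgeR adjusted p 1.64e-13) in cKO mice, a 30.4-fold lower level, and -4.90 (SE 0.317, edgeR adjusted p 3.64e-11) in control mice, a 29.9-fold lower level. Klra8 fell by 4.24 in cKO mice (SE 0.284, edgeR adjusted p 1.53e-11) and by 3.93 in control mice (SE 0.326, edgeR adjusted p 3.38e-09) on the log2 scale. These levels are over sorted pools, and Eomes in iILC1 was 94.3 and 132 CPM on average in cKO and control mice, so RNA of this NK marker was measured in both. The part of NK cells in the iILC1 values was not tested. Of the 8 ILC1 markers 7 rose in iILC1 in each genotype and 1 fell in cKO mice. Of the 11 T and NKT markers tested 3 rose in cKO and 5 in control mice, Cd3e among them, at 27.5 ± 5.60 CPM in cKO iILC1, 64.0 ± 20.7 in control iILC1, 3.66 ± 2.78 in cKO iNK and 3.31 ± 1.46 in control iNK. Of the 10 B cell markers 7 fell in iILC1 of cKO mice and none passed in control mice. Of 11 myeloid markers tested, 1 fell in cKO mice, and 1 rose and 2 fell in control mice, and Cebpe was at 0 in all control iILC1 libraries. Of the 8 plasmacytoid dendritic cell markers, 1 rose and 3 fell in cKO mice and 2 fell in control mice, and of the 6 NK cell markers, 1 rose and 2 fell in cKO mice and 3 fell in control mice.

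The inhibitory genes spanned a range. Klra10 fell by 2.47 in cKO and 2.32 in control mice, Klra3 by 2.46 and 1.87, Klra7 by 1.89 and 1.62, and Klra9 by 1.81 and 1.51 on the log2 scale, with edgeR adjusted p-values of 2.27e-09 to 0.00043. Klra1 fell in cKO mice, by 1.33 (SE 0.253, edgeR adjusted p 0.00104). In control mice its log2 fold change was -0.88 (SE 0.286, edgeR adjusted p 0.0779), although its libraries did not overlap. The members that passed in neither genotype were Klra5, with log2 fold changes of -0.81 in cKO and 0.14 in control mice, and Klra6, with -0.74 and 0.46. Their genes are neighbours at one end of the cluster, beside Klra17, which did not pass either, at -0.77 and 0.52. Counts per library were low, at 4 to 55 for Klra17, 10 to 61 for Klra5 and 18 to 199 for Klra6. Klra10 passed at 8 to 260 counts. In cKO mice the Klra5 libraries did not overlap and were lower in iILC1, so a missing call does not show equal levels.

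**Figure D5:**
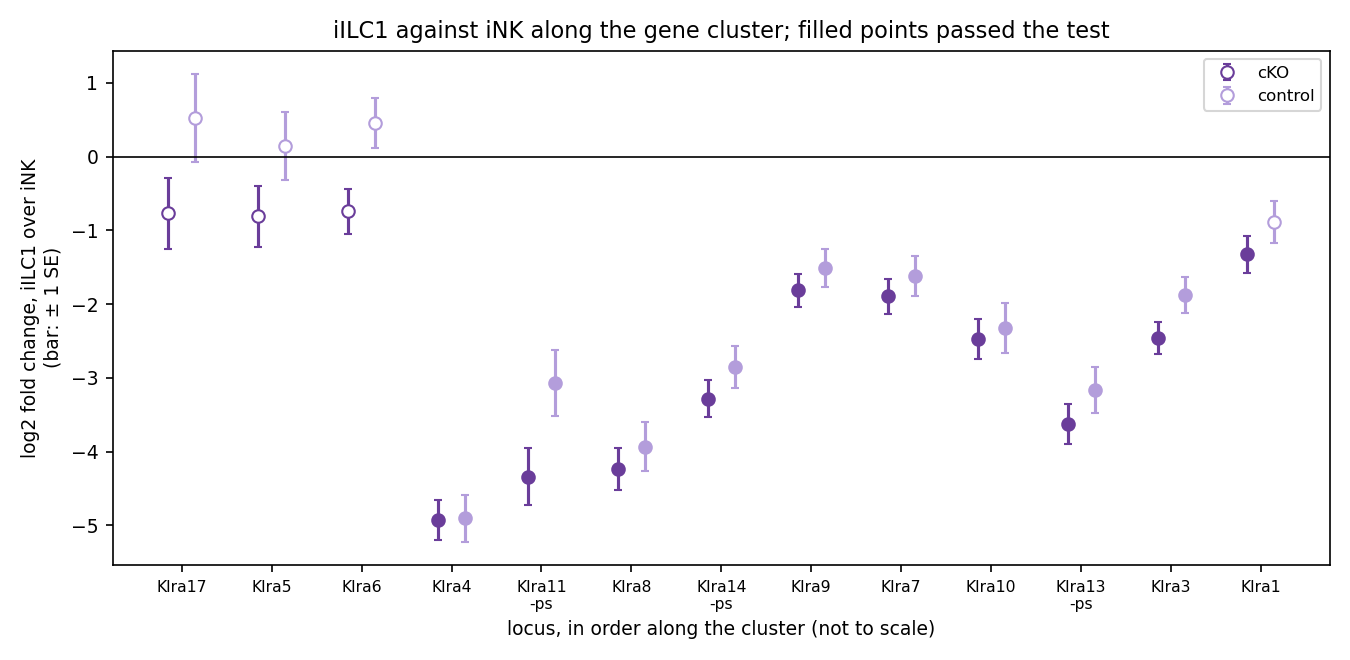
Log2 fold change of iILC1 over iNK for 13 Klra loci in order along the cluster on chromosome 6 (order only, not to scale), in cKO and control mice, with bars of 1 SE and filled points where the edgeR adjusted p was at most 0.05. The 3 loci at the left, Klra17, Klra5 and Klra6, have open points in both genotypes, and Klra4 is the lowest, at -4.93 and -4.90.

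The annotated pseudogenes also fell in iILC1. Klra13-ps averaged 51.5 ± 16.6 CPM in cKO iILC1, 59.4 ± 10.0 CPM in control iILC1, 636 ± 176 CPM in cKO iNK and 534 ± 164 CPM in control iNK. It fell by 3.62 in cKO and by 3.16 in control mice on the log2 scale (edgeR adjusted p 1.49e-10 and 9.04e-08). Klra14-ps fell by 3.28 and 2.86, and Klra11-ps, at 0.664 and 1.02 CPM on average in cKO and control iILC1, fell by 4.34 and 3.07. No other Klra locus passed between genotypes, including Klra13-ps, whose estimates were -0.21 in iILC1 and 0.25 in iNK. Of its stretches of 50 bases, 13.7% also occurred in another Klra locus, mostly Klra7, and the sum of Klra7 and Klra13-ps was 125 ± 36.1 CPM in cKO iILC1, 231 ± 56.1 CPM in control iILC1, 910 ± 232 CPM in cKO iNK and 1061 ± 261 CPM in control iNK.

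Among genes that work with the receptors, 3 signalling partners passed in cKO mice and 4 in control mice. Of 15 signalling partners, Fyn and Syk, both kinases, fell in iILC1 in both genotypes, by 1.30 and 1.00 in cKO mice and by 1.37 and 1.19 in control mice on the log2 scale. Plcg1, a phospholipase, rose by 1.05 in cKO and 1.08 in control mice. Tyrobp, which encodes DAP12, fell in control mice, by 0.99 (edgeR adjusted p 0.0419), and averaged 370 ± 124 CPM in cKO iILC1, 382 ± 58.2 in control iILC1, 598 ± 156 in cKO iNK and 757 ± 166 in control iNK. None of the 15 passed between genotypes in either cell type. Of 5 ligand genes, 1 passed, H2-M3, which rose in iILC1 of cKO mice with a log2 fold change of 0.71 (edgeR adjusted p 0.0461).

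Of 20 transcription factors tied to NK cells or to Ly49 acquisition, 3 rose and 4 fell in iILC1 of cKO mice, and 2 rose and 2 fell in iILC1 of control mice. Eomes fell by 3.09 in cKO and 2.47 in control mice, and Zfp683 (Hobit) rose by 4.46 and 2.84 on the log2 scale. Id2 rose by 1.30 in cKO mice, and Prdm1 fell by 0.92 in cKO and 1.44 in control mice. None of the 20 passed between genotypes in either cell type. The medians of this list in iILC1 over iNK were -0.30 in cKO and -0.44 in control mice.

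The other lectin receptors of the same gene complex moved in both directions. Of 18 tested (Klrh1 of the 19 listed was not measured here), 5 rose and 6 fell in iILC1 of cKO mice, and 1 rose and 6 fell in iILC1 of control mice. Klrb1b rose by 2.67 in cKO and 1.66 in control mice, whereas Klre1 fell by 1.93 and 1.61 and Klri2 by 1.65 and 1.80 on the log2 scale. None of the 18 passed between genotypes in iILC1 or iNK. The list medians of iILC1 over iNK were 0.11 in cKO and -0.46 in control mice, beside -1.89 and -1.62 for the tested Klra members.

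Of the 15 genes of NK maturation, 2 rose and 6 fell in iILC1 in each genotype. Gzma fell by 3.26 in cKO and 3.02 in control mice, and Ly6c2 rose by 2.66 and 3.32 on the log2 scale. Gzmb fell by 1.41 in control mice. Of the 5 markers of mature NK cells, 2 fell in cKO mice and 1 fell in control mice.

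The genes whose pattern over the 14 libraries was closest to the summed members were Eomes, Cmah, Tigit, Arl5c and Scimp, out of 10327 genes. Closeness was the root mean square difference of centred log2 CPM, at 0.25 for Eomes, 0.309 for Cmah, 0.415 for Tigit, 0.425 for Arl5c and 0.447 for Scimp. Eomes had the averages given above. Cmah, an enzyme of sialic acid synthesis, averaged 16.2 CPM in cKO iILC1, 38.4 in control iILC1, 204 in cKO iNK and 205 in control iNK. Tigit, an inhibitory receptor outside this family, averaged 3.24, 6.10, 28.4 and 24.5 CPM in the same groups. The 14 libraries share 4 groups and the difference between the cell types, so this likeness is a description only.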

How the data were processed

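RNA-seq counts per Ensembl gene were deposited by the authors as raw counts with no normalization, per the file headers. The submitters' processing notes name the build mm10, HISAT2 2.1.0, Subread 1.6.5 with featureCounts, and Trimmomatic 0.33. Libraries were made with SMART-Seq v4 and Nextera XT, per the labels' protocols. The annotation release was not given in the sources used here, and 83.2% of the gene positions equal those of GENCODE M21, from which the sequences were read. Each of the 14 columns matched 1 sample by title, and 45143 of 46078 identifiers (97.97%) matched a symbol.

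Genes were kept by filterByExpr (minimum count 10, total 15), which left 26990, and scaled by TMM. One quasi-likelihood fit in edgeR 4.0.16 (R 4.3.3) held 1 mean for each of the 4 groups (10 residual degrees of freedom, common biological coefficient of variation 30%). Tests were two-sided with Benjamini-Hochberg adjustment over all genes at 0.05, and the fit was tested on simulated data. SE was derived from the F statistic. Alternatives used DESeq2 1.42.0, RLE factors, no filter, a replicate block, only the 2 groups compared, a covariate of background reads, no control iNK replicate 1 and cKO iILC1 replicate 1, and each library left out. Robust dispersion was added after seeing the data.

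Every pair of replicates differed beyond sampling noise (chi-square per degree of freedom 4.97 to 27.2). Total counts of 3512796 to 12572326 per library limit the members at a few counts, Klra2 above all. The members, lists, markers and alternatives were chosen with earlier results of these data known. The text names every member, up to 3 called genes of a list or marker list per comparison by smallest p, the targeted gene Il15, and the 5 closest genes by pattern. Tyrobp, Cebpe, Trbc1, Cd3e in the genotype comparison and Itgam in iNK were named in addition after their values were seen, and 2 genes that the rule names are not reported here.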

Additional observations from a re-analysis of the deposited data

Results flagged for a closer look

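Klra2 in cKO iNK reached 1.94 CPM in replicate 2, against 0.596 to 0.780 CPM in the other 3 libraries of that group, a gap large for the range of 4 samples. The value rests on 14 counts, against 5 to 7 counts in the others, and control iNK had 0.625 to 1.12 CPM. Klra2 was not tested in any comparison. The same rule marks about 1 in 20 groups by chance, and groups of 3 were not examined. No member passed the test of a difference in genotype effect between the cell types.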

How the results depend on the processing

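Counts of members called between iILC1 and iNK held under the 8 alternatives run, at 7 in cKO mice and 6 to 7 in control mice, and at 7 and 6 with any library left out. The interaction stayed at 0. In cKO iNK against control iNK, 0 members became 2 with DESeq2, no filter, the replicate block or 2 groups in the fit (Klra1 and Klra7). They became 2 with the background covariate (Klra4 and Klra7), and leaving out any library gave 0. Over all genes these 5 settings called 294, 191, 175, 220 and 375 in the same order. In cKO iILC1 against control iILC1, 2 became 1 with RLE factors (Klra6) and 5 with the background covariate (Klra1, Klra3, Klra6, Klra7 and Klra9), and 0 to 3 with a library left out: 0 without control replicate 3, 1 without cKO replicate 2, cKO replicate 3 or control replicate 1, and 3 otherwise. The labels do not say whether replicate numbers mark shared mice or days, and same-numbered libraries correlated at -0.182 to 0.614, so pairing was not established. Under the replicate block, with DESeq2 and with no filter, 3 members were called in cKO against control iILC1 (Klra1, Klra6 and Klra7). All genes called were 30, 46 and 47 in the same order. With 2 groups in the fit the 2 members called were Klra6 and Klra7, beside 16 of all genes. In that comparison RLE factors called 12 of all genes and the background covariate 53. Without control iNK replicate 1 and cKO iILC1 replicate 1, Klra7 also passed in iILC1 (-1.32), beside 17 of all genes.

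Signs turned for estimates near 0 that had not passed. In iNK, Klra3 was 0.0117 with the background covariate and -0.272 to 0.0202 with a library left out, and Klra8 was -0.0392 to 0.544. In iILC1, Klra8 was 0.00795 without the 2 libraries of least background and -0.263 to 0.289 with a library left out, and Klra10 was -0.137 to 0.341. Between cell types in control mice, Klra5 was -0.169 to 0.582 and Klra6 was -0.0112 to 0.684. In the interaction, Klra4 was 0.0307 with DESeq2, 0.0303 with RLE factors and -0.229 to 0.0834 with a library left out, Klra10 was -0.458 to 0.0904 and Klra8 was -0.621 to 0.0663. The cause was not tested. Over all genes, calls were 110 in iNK (110 to 375 over alternatives, 63 to 87 with a library left out), 13 in iILC1 (12 to 53, 4 to 22), 923 between cell types in cKO mice (889 to 1668, 713 to 1094), 1056 in control mice (866 to 2212, 394 to 1701) and 21 for the interaction (15 to 56, 10 to 33). The summed members moved to 230 (cKO iILC1), 425 (control iILC1), 2192 (cKO iNK) and 2194 CPM (control iNK) with RLE factors, which turned the order of cKO and control iNK.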
